A study of Rattus norvegicus with 17 samples.

Results

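The 6 genes described here are Amh, which encodes anti-Müllerian hormone, its receptor gene Amhr2, the inhibin and activin subunit genes Inha, Inhba and Inhbb, and Fst, which encodes follistatin. They were chosen by gene symbol from the 30560 genes of the count table, each identifier once, and all 6 were found and passed the filter on low counts. The libraries are polyA-selected RNA of wild type Sprague Dawley rat fetal testis on gestational day 21, each from 1 testis or 2 pooled testes of the same litter. Pregnant rats were gavaged from gestational day 17 to 21 with dipentyl phthalate (DPeP), a phthalate ester plasticizer, dissolved in 2.5 mL/kg corn oil. The 17 libraries fell into 5 groups: corn oil alone, called vehicle (n = 3), and DPeP at 1 (n = 3), 11 (n = 3), 100 (n = 3) and 300 mg/kg/d (n = 5). Every group shared the corn oil and the handling of gavage. The labels do not tie libraries to dams, so p-values measure the spread between these samples.

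These hormones belong to the transforming growth factor beta family, which signals through pairs of type I and type II serine/threonine kinase receptors and SMAD proteins. Fetal Sertoli cells secrete anti-Müllerian hormone, which makes the Müllerian ducts of the male fetus regress, and Amhr2 is the type II receptor that binds it. A dimer of the beta subunits encoded by Inhba and Inhbb is an activin, while the alpha subunit encoded by Inha paired with a beta subunit is an inhibin, which opposes activin at its receptors. Follistatin binds activins in the extracellular space and neutralizes them. In the rodent fetal testis, Inha is made in Sertoli and Leydig cells, Inhbb mainly in Sertoli cells and Inhba mainly in fetal Leydig cells.

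Promoter sequences of the 3 genes that changed with dose are shown so that the windows of genes with opposite changes can be compared. RefSeq promoter windows on the build GRCr8 matched 5 of the 6 genes, and Fst was not matched. Each sequence is the 250 bases before the gene's start, read 5′ to 3′ on the strand of the gene. Capitals mark the motifs searched on both strands: AAGGTCA (a site of the steroidogenic factor SF-1), the nuclear receptor half-site AGGTCA within it or alone, the GATA sites AGATAA or AGATAG, with TGATAA or TGATAG as their variants, the SOX sites AACAAT or ACAAAG, the cAMP response element variant TGCGTCA and the TATA box letters TATAA. Motifs were chosen with these sequences in view.
Amh, chr7:9559868-9560117, minus strand: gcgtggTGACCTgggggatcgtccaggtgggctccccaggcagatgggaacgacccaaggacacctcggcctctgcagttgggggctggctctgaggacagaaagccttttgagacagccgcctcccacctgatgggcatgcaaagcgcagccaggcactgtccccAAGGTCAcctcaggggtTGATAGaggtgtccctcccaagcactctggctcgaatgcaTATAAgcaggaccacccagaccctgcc
Inha, chr9:84442859-84443108, plus strand: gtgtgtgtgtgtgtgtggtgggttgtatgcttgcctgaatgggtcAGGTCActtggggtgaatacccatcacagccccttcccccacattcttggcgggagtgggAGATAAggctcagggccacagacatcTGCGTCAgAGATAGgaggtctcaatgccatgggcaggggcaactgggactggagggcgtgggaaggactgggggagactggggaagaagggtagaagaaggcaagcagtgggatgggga
Amhr2, chr7:135457672-135457921, plus strand: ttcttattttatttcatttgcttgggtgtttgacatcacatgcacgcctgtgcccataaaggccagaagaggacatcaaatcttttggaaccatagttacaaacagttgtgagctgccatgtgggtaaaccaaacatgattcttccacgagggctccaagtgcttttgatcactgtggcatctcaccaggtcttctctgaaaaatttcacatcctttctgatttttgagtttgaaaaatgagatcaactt

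The Amh window held AAGGTCA beginning 84 bases before the start, with the overlapping AGGTCA at 83, a GATA site TGATAG at 67 and TATAA at 27. It also held AGGTCA on the opposite strand at 244 bases. The Inha window held AGGTCA at 205 bases, GATA sites at 145 and 111 and TGCGTCA at 119, and held no TATAA. None of the searched letters was in the Amhr2 window. Of the 33469 promoter windows of the same length, 3.99% held AAGGTCA, 14.1% AGGTCA, 27.0% a GATA site, 24.5% a SOX site, 1.66% TGCGTCA and 24.0% TATAA. These matches describe the letters of the windows and are not evidence of binding.

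Libraries held 14282274 to 20323488 counts assigned to genes. Of the libraries at 100 mg/kg/d, replicates 05 and 18 stood apart, with 9.05% and 7.76% of gene counts from the mitochondrial genome against 4.35% to 6.16% in the other 15 libraries. The members' differences at 100 mg/kg/d are therefore also given without these replicates, which leaves replicate 19 alone in its group, with a spread taken from the other groups. The titles also carry a sample code with no stated meaning, S446 in 2 libraries, S447 in 8 and S448 in 7. S446 held 1 vehicle library and 1 library at 1 mg/kg/d. Defining Sertoli and Leydig cell markers were present in every group, and none of the 15 Sertoli and 8 Leydig markers measured was at 0.

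Levels are given as CPM, which are counts scaled to one common TMM-adjusted library size, with SD over the libraries of a group. Differences are log2 fold changes with standard errors (SE) from edgeR's quasi-likelihood test over all 17 libraries, and a gene counts as called where the p adjusted by Benjamini-Hochberg over the 18005 genes tested is under 0.05. Of the 6 members, 2 were called higher (Amh and Amhr2) and 1 lower (Inha) at 300 mg/kg/d. The background of that comparison was 2.40% of all genes called, 0.994% higher and 1.41% lower. At 100 mg/kg/d 1 member, Inha, was called lower, against a background of 1.52% of genes called and 1.03% called lower. No member was called at 11 or at 1 mg/kg/d, where edgeR called 0.00% of all genes in each comparison and 633 and 891 genes had an unadjusted p under 0.05. Over the whole dose series, a slope on log2(dose + 1) was called for Amh, Amhr2 and Inha, against 5.72% of genes (2.74% rising and 2.98% falling), and the test for any difference among the 5 groups called the same 3 genes, against 6.16% of genes. The median log2 fold change of the members at 300 mg/kg/d was -0.14, and that of all genes tested was 0.01.

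**Figure D1:**
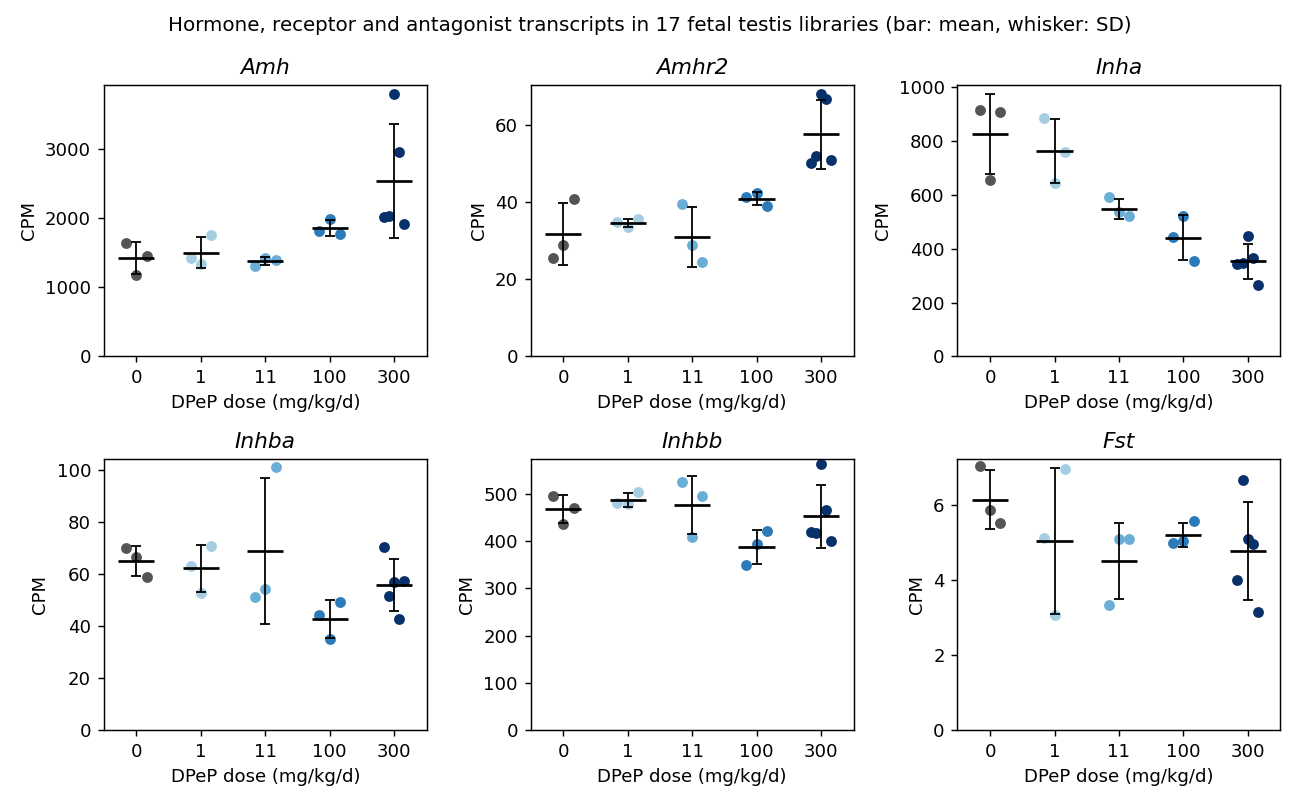
CPM of each of the 6 genes (vertical axes) in all 17 libraries, grouped by DPeP dose in mg/kg/d (horizontal axes), with points for libraries and bars for group means and SD. Inha falls from 824 CPM in vehicle to 353 CPM at 300 mg/kg/d, Amh and Amhr2 are highest at 300 mg/kg/d, and Inhba, Inhbb and Fst show overlapping groups at that dose.

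On a per-length scale (TPM, computed here from counts over exon length and scaled to one sum), the order of the genes in vehicle was Amh, Inha, Inhbb, Inhba, Amhr2 and Fst. Vehicle means were 1886 ± 340 TPM for Amh, 891 ± 164 for Inha, 248 ± 20.8 for Inhbb, 98.6 ± 12.02 for Inhba, 36.0 ± 7.86 for Amhr2 and 6.49 ± 1.06 for Fst (SD, n = 3). Amh ranked 46 and Inha 121 among the 30560 genes by vehicle TPM, so both hormone transcripts stood among the most abundant in the tissue. The order of the 6 genes by mean TPM was the same at 300 mg/kg/d, with the distance between Amh (3488 ± 1091 TPM) and Inha (397 ± 68.6 TPM, SD, n = 5) much wider.

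Amh (ENSRNOG00000019377, mRatBN7.2 chr7:8906836-8909282, minus strand) was higher at the top dose, by 1.78-fold. In vehicle it was at 1634, 1177 and 1453 CPM in replicates 01, 08 and 15. At 1 mg/kg/d it was at 1416, 1331 and 1752 CPM in replicates 02, 09 and 10, and at 11 mg/kg/d at 1312, 1423 and 1388 CPM in replicates 03, 16 and 17. Both of these low dose groups overlapped the vehicle libraries. Replicates 05, 18 and 19 at 100 mg/kg/d stood at 1811, 1989 and 1774 CPM, and at 300 mg/kg/d replicates 06, 07, 13, 14 and 20 were at 2008, 2021, 3788, 2945 and 1908 CPM. All 8 libraries of the upper doses stood above every vehicle library, and replicates 13 and 14 stood well above the other 3 at 300 mg/kg/d.

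Mean Amh was 1421 ± 230 CPM in vehicle (SD, n = 3), 1858 ± 115 at 100 mg/kg/d (SD, n = 3) and 2534 ± 818 at 300 mg/kg/d (SD, n = 5). Groups without overlap in the higher direction were found for 5.82% of genes at 300 mg/kg/d and 7.14% at 100 mg/kg/d. At 300 mg/kg/d the log2 fold change was 0.83 (SE 0.187, adjusted p = 0.0180). The corresponding value at 100 mg/kg/d was 0.39 (SE 0.203, adjusted p = 0.303), and 0.30 (adjusted p = 0.658) without replicates 05 and 18. The dose slope was 0.098 log2 units per unit of log2(dose + 1) (SE 0.0203, adjusted p = 0.00491), which comes to 1.75-fold over the whole range. Among neighbouring doses, only 11 and 100 mg/kg/d did not overlap. The share of all genes without overlap between these groups was not computed.

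The call of Amh at 300 mg/kg/d rested on few libraries. It was lost without vehicle replicate 08 (adjusted p = 0.118), without vehicle replicate 15 (0.0810), without top dose replicate 14 (0.0551) and in a fit that includes the sample code (0.0591). The log2 ratio of mean CPM to vehicle within a sample code was 1.00 in S447 (2 libraries at 300 mg/kg/d) and 0.49 in S448 (3 libraries), each against 1 vehicle library. In bulk tissue, more cells of a type and more RNA per cell cannot be told apart, and the same holds for fewer cells and less RNA.

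Some markers of Sertoli cells, the cell type that makes Amh, were also higher at the top dose. Of 15 markers tested, 4 were called higher and none lower at 300 mg/kg/d, and none was called at 100 mg/kg/d, where 10 had a positive and 5 a negative log2 fold change. The mean log2 CPM of the 15 matched markers of a list of 19 was 0.40 above vehicle at 300 mg/kg/d and 0.15 above it at 100 mg/kg/d. Their summed level was 1045 to 1127 TPM in vehicle, 1001 to 1336 TPM at 100 mg/kg/d and 1372 to 1558 TPM at 300 mg/kg/d, so the groups overlapped at 100 and not at 300 mg/kg/d. Relative to this list, Amh was still at a higher mean at 300 mg/kg/d: the difference of Amh log2 CPM and the list's mean was 5.24 ± 0.368 (SD, n = 5) against 4.85 ± 0.184 in vehicle (SD, n = 3). These groups overlapped, and the difference of 0.39 had p = 0.107 in a two-sided exact permutation test (adjusted p = 0.4 over 16 ratio tests). The higher mean came mainly from replicates 13 and 14 at 300 mg/kg/d, with 5.76 and 5.49. Replicates 06, 07 and 20 were at 5.05, 4.98 and 4.93, against 5.03, 4.66 and 4.87 in vehicle replicates 01, 08 and 15. The difference at 100 mg/kg/d was 0.24 with no overlap, and the exact permutation p was 0.1, the smallest that 3 against 3 libraries allow.

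Amhr2 (ENSRNOG00000014850, mRatBN7.2 chr7:133579393-133588258, plus strand), the receptor of Amh, was also higher at the top dose, by 1.81-fold. In vehicle replicates 01, 08 and 15 it was at 25.7, 28.9 and 41.0 CPM. At 1 mg/kg/d it was at 34.9, 33.6 and 35.7 CPM and at 11 mg/kg/d at 39.5, 28.9 and 24.5 CPM in the replicate order used for Amh. Amhr2 was at 41.4, 42.4 and 39.2 CPM at 100 mg/kg/d, and these 3 libraries still overlapped vehicle replicate 15. At 300 mg/kg/d replicates 06, 07, 13, 14 and 20 were at 50.2, 52.0, 68.3, 66.8 and 51.1 CPM, above all 12 libraries of the other groups. Against vehicle alone, 5.82% of genes were higher with no overlap at 300 mg/kg/d. The share of genes above all other groups was not computed. The highest libraries of Amhr2 were replicates 13 and 14, as for Amh.

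The mean of Amhr2 was 57.7 ± 9.04 CPM at 300 mg/kg/d (SD, n = 5) against 31.8 ± 8.05 in vehicle (SD, n = 3), with the log2 fold change at 0.86 (SE 0.161, adjusted p = 0.00435). Its mean at 100 mg/kg/d was 41.0 ± 1.67 CPM (SD, n = 3), with its log2 fold change at 0.36 (SE 0.176, adjusted p = 0.264), and 0.28 (adjusted p = 0.648) without replicates 05 and 18. The dose slope was 0.097 per unit (SE 0.0186, adjusted p = 0.00270), or 1.74-fold over the range. Amhr2 was called at 300 mg/kg/d in all 25 alternatives run, with log2 fold changes from 0.72 to 1.08. Within sample codes the log2 ratio at 300 mg/kg/d was 0.55 in S447 and 1.12 in S448. The part of the Sertoli cell markers in the Amhr2 result was not tested.

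Inha (ENSRNOG00000020097, mRatBN7.2 chr9:76993589-76997248, plus strand), the subunit that makes a dimer an inhibin, was lower with dose, by 1.87-fold at 100 and 2.33-fold at 300 mg/kg/d. Its span overlaps Tmem198 on the same strand with no shared exon base. Vehicle replicates 01, 08 and 15 were at 913, 654 and 906 CPM, and at 1 mg/kg/d replicates 02, 09 and 10 were at 884, 644 and 758 CPM. At 11 mg/kg/d replicates 03, 16 and 17 were at 591, 535 and 520 CPM. Vehicle and 1 mg/kg/d overlapped, while all 3 libraries at 11 mg/kg/d were below every vehicle library. Groups without overlap in the lower direction were found for 6.94% of genes at that dose. Replicates 05, 18 and 19 at 100 mg/kg/d were at 444, 523 and 356 CPM, and at 300 mg/kg/d replicates 06, 07, 13, 14 and 20 were at 343, 346, 446.5, 366 and 264 CPM. All 8 were below every vehicle library, where 7.89% and 6.48% of genes were lower with no overlap at 100 and 300 mg/kg/d. Vehicle replicate 08 was the lowest vehicle library and lay close to the libraries at 11 mg/kg/d.

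Group means of Inha were 824 ± 148 CPM in vehicle, 762 ± 120.0 at 1 mg/kg/d, 549 ± 37.3 at 11, 441 ± 83.6 at 100 (SD, n = 3 each) and 353 ± 65.2 at 300 mg/kg/d (SD, n = 5). The log2 fold change of Inha at 300 mg/kg/d was -1.22 (SE 0.152, adjusted p = 4.99e-05). The log2 fold change at 100 mg/kg/d was -0.90 (SE 0.174, adjusted p = 0.01003). Without replicates 05 and 18 it was -1.23 (adjusted p = 0.0311), since replicate 19 was the lowest of the 3. The call at 100 mg/kg/d was lost without vehicle replicate 01 (adjusted p = 0.0596), without vehicle replicate 15 (0.0601) and in a fit of these 2 groups alone (0.148). At 11 mg/kg/d the log2 fold change was -0.59 (SE 0.174), with an unadjusted p of 0.00298 and an adjusted p of 0.779. The dose slope was -0.147 per unit (SE 0.0154, adjusted p = 1.75e-06), or 2.31-fold over the range.

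Inha was called lower at 300 mg/kg/d in all 25 alternatives, with log2 fold changes from -1.37 to -1.14. Its log2 ratio to vehicle within sample codes was -1.19 in S447 and -1.49 in S448 at 300 mg/kg/d. The corresponding values were -1.18 and -0.80 at 100 mg/kg/d, and -0.71 and -0.77 at 11 mg/kg/d. At 1 mg/kg/d they were -0.49 in S447, -0.05 in S448 and 0.21 in S446, so no common direction was present at the lowest dose.

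Leydig cell markers were lower as well, with 7 of 8 called lower at 100 mg/kg/d and 8 of 8 at 300 mg/kg/d. The remaining marker had a positive log2 fold change at 100 mg/kg/d, and its dose slope was not called. The mean log2 CPM of the 8 markers was lower than vehicle by 0.30, 0.65, 1.28 and 1.87 at 1, 11, 100 and 300 mg/kg/d, and their summed level went from 5735 to 7307 TPM in vehicle to 1756 to 2628 TPM at 300 mg/kg/d. Among them was Cyp17a1, an enzyme of androgen synthesis, with its log2 fold change at -2.12 (SE 0.178, adjusted p = 4.85e-07). Insl3, the hormone of testis descent, was at -2.36 (SE 0.237) and Star, which carries cholesterol into mitochondria, at -2.09 (SE 0.181). The log2 fold change of Inha at 300 mg/kg/d, -1.22, was smaller in size than those of these 3 genes, although that difference between genes was not tested. The part of the Leydig cell markers in the Inha result was not tested.

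**Figure D2:**
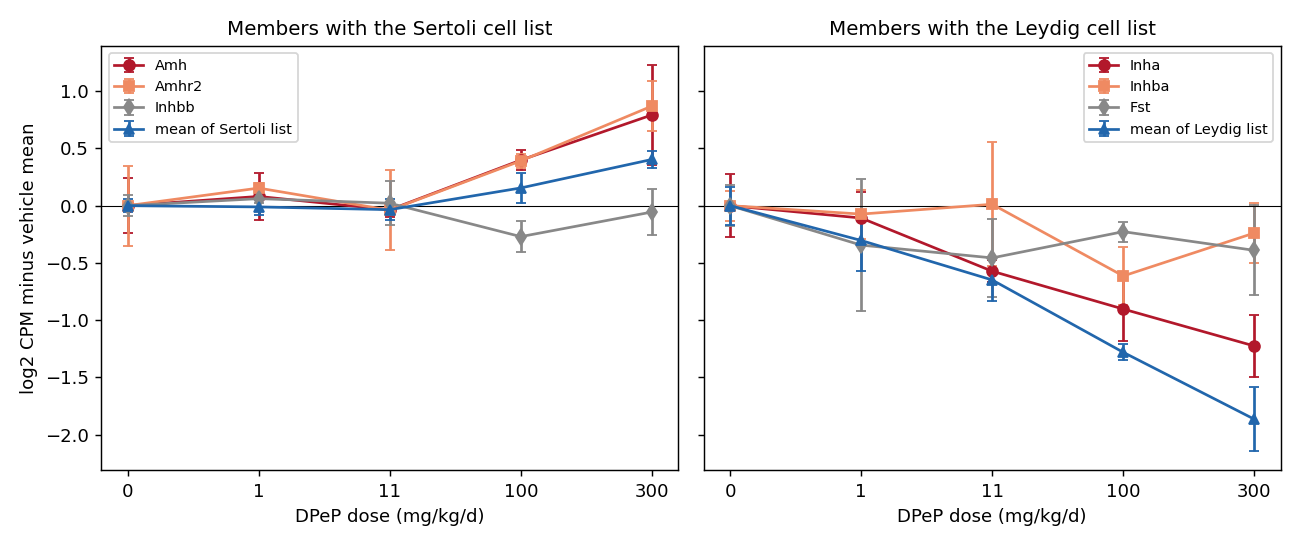
Mean log2 CPM minus the vehicle mean (vertical axis) by DPeP dose (horizontal axis) for Amh, Amhr2 and Inhbb beside the mean of the Sertoli cell marker list (left) and for Inha, Inhba and Fst beside that of the Leydig cell marker list (right), with bars for SD. At 300 mg/kg/d the Sertoli list is 0.40 above vehicle and the Leydig list is at -1.87, with Amh and Amhr2 above the Sertoli list and Inha between 0 and the Leydig list.

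Inhbb (ENSRNOG00000060237, mRatBN7.2 chr13:30530860-30537832, minus strand) encodes the beta B subunit, shared by inhibin B and activin B. It shares 132 exon bases with the unnamed gene ENSRNOG00000070618 on the same strand, so a part of its counts is uncertain. Vehicle replicates 01, 08 and 15 were at 495, 437 and 470 CPM, and at 300 mg/kg/d replicates 06, 07, 13, 14 and 20 were at 419, 416, 563, 465 and 399 CPM. These 2 groups overlapped. Libraries held 479.5, 478 and 503 CPM at 1 mg/kg/d and 525, 408 and 495 CPM at 11 mg/kg/d, and both groups overlapped vehicle. Values at 100 mg/kg/d were lower, with 349.5, 393 and 421 CPM in replicates 05, 18 and 19, all below every vehicle library. At that dose 7.89% of all genes were lower with no overlap.

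The log2 fold change of Inhbb at 300 mg/kg/d was -0.05 (SE 0.112, adjusted p = 0.915), with an approximate 95% interval from -0.27 to 0.17. Such intervals, also given for Inhba and Fst, were made from the SE with a normal distribution. They are therefore somewhat narrower than the quasi-likelihood test would give. Mean levels were 453 ± 66.4 CPM (SD, n = 5) against 467 ± 29.2 CPM in vehicle (SD, n = 3). The value at 100 mg/kg/d was -0.27 (SE 0.126, adjusted p = 0.251), and -0.17 (adjusted p = 0.675) without replicates 05 and 18, which were the lowest Inhbb libraries of all 17. The dose slope was -0.018 per unit (SE 0.0124, adjusted p = 0.470).

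Inhba (ENSRNOG00000014320, mRatBN7.2 chr17:49095920-49108982, minus strand) encodes the beta A subunit of inhibin A and activin A. Vehicle replicates 01, 08 and 15 were at 70.2, 66.4 and 58.8 CPM, and at 1 mg/kg/d replicates 02, 09 and 10 were at 63.0, 52.7 and 70.8 CPM. At 11 mg/kg/d the libraries held 51.4, 54.1 and 101 CPM, where replicate 17 was the highest of all 17 libraries and the other 2 lay below vehicle. Inhba was at 44.1, 34.9 and 49.5 CPM in replicates 05, 18 and 19 at 100 mg/kg/d, below every vehicle library. Of all genes, 7.89% were lower with no overlap at that dose. The 5 libraries at 300 mg/kg/d held 70.4, 51.4, 56.8, 42.6 and 57.4 CPM and overlapped vehicle again.

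The mean of Inhba was 65.1 ± 5.79 CPM in vehicle (SD, n = 3), 42.8 ± 7.38 at 100 mg/kg/d (SD, n = 3) and 55.7 ± 10.1 at 300 mg/kg/d (SD, n = 5). The log2 fold change at 300 mg/kg/d was -0.22 (SE 0.189, adjusted p = 0.679), with an approximate 95% interval from -0.59 to 0.15. At 100 mg/kg/d it was -0.61 (SE 0.214, adjusted p = 0.140). Without replicates 05 and 18 it was -0.41 (adjusted p = 0.556), and without replicate 19 it was -0.73 and passed the test (adjusted p = 0.0316). Its mean was thus lowest at 100 mg/kg/d, and its dose slope of -0.042 per unit (SE 0.0217) was not called (adjusted p = 0.309).

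Fst (ENSRNOG00000011631, mRatBN7.2 chr2:46123439-46130571, minus strand), the activin antagonist, was the least abundant of the 6 genes, with 44 to 118 counts in a library. Vehicle replicates 01, 08 and 15 were at 7.03, 5.86 and 5.51 CPM, and at 300 mg/kg/d the 5 libraries held 3.99, 6.65, 5.09, 4.96 and 3.15 CPM. The groups overlapped, and the log2 fold change was -0.36 (SE 0.243, adjusted p = 0.577) with an approximate 95% interval from -0.84 to 0.11. At 11 mg/kg/d the libraries held 3.33, 5.08 and 5.08 CPM, all below vehicle, where 6.94% of all genes were lower with no overlap. The log2 fold change of Fst was -0.44 there (SE 0.274, adjusted p = 0.992). The libraries held 5.11, 3.07 and 6.94 CPM at 1 mg/kg/d and 4.99, 5.04 and 5.57 CPM at 100 mg/kg/d, and both groups overlapped vehicle.

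**Figure D3:**
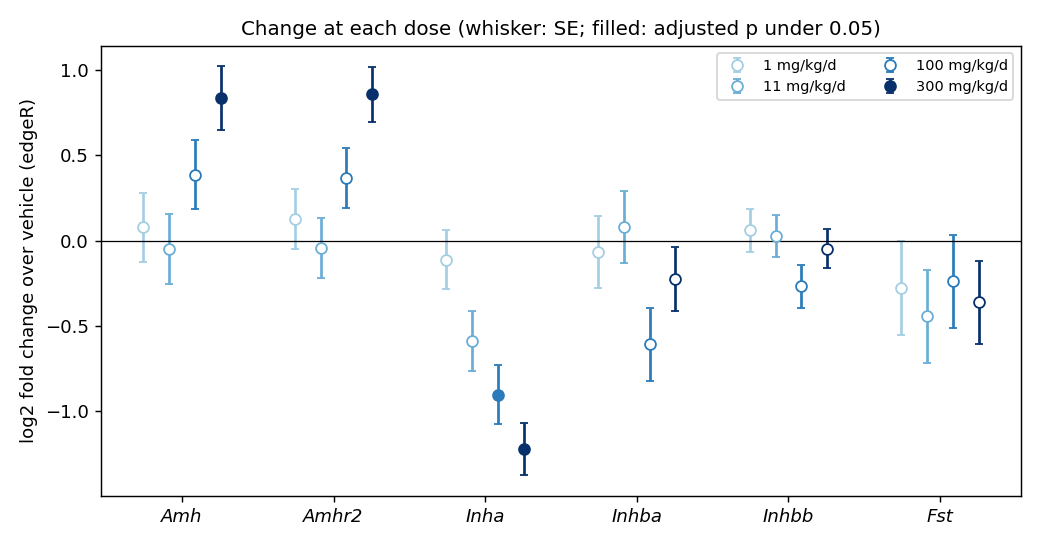
Log2 fold change over vehicle (vertical axis) of the 6 genes at 1, 11, 100 and 300 mg/kg/d DPeP, with bars for the SE computed from edgeR's F statistic and filled points at an adjusted p under 0.05. Inha descends from -0.11 at 1 mg/kg/d to -1.22 at 300 mg/kg/d, Amh and Amhr2 reach 0.83 and 0.86, and no point of Inhba, Inhbb or Fst is filled.

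The proportion of subunits within a library was followed as the ratio of Inha to the sum of Inhba and Inhbb, each as counts over exon length. In vehicle replicates 01, 08 and 15 there were 2.68, 2.13 and 2.90 alpha subunit transcripts for each beta subunit transcript. At 300 mg/kg/d replicates 06, 07, 13, 14 and 20 were at 1.13, 1.25, 1.26, 1.27 and 0.956. The groups did not overlap, and the highest treated library lay below the lowest vehicle library by a wide margin. The mean log2 ratio was 1.35 ± 0.231 in vehicle (SD, n = 3) and 0.22 ± 0.175 at 300 mg/kg/d (SD, n = 5), a 2.18-fold lower ratio. The two-sided exact permutation test gave p = 0.0357, the smallest that 3 against 5 libraries allow, and an adjusted p of 0.4 over the 16 ratio tests.

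At 11 mg/kg/d the ratio was 1.79, 1.94 and 1.35 in replicates 03, 16 and 17, below every vehicle library, with an exact permutation p of 0.1, the smallest possible for 3 against 3. At 100 mg/kg/d replicates 05, 18 and 19 were at 1.91, 2.17 and 1.29, and replicate 18 overlapped vehicle. The ratios of replicates 05 and 18 lay closer to vehicle than that of replicate 19. Both beta subunits were lower in replicates 05 and 18 than in replicate 19, while Inha was higher (444 and 523 against 356 CPM). The log2 difference from vehicle was -0.54 with all 3 libraries (exact permutation p = 0.2) and -0.98 for replicate 19 alone. At 1 mg/kg/d the ratios of 2.74, 2.09 and 2.19 overlapped vehicle.

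The ratio of the beta subunits to each other and that of Fst to their sum overlapped vehicle at 300 mg/kg/d. The smallest possible exact permutation p was 0.1 for 3 against 3 and 0.0357 for 3 against 5 libraries. None of the 16 ratio tests could therefore pass after adjustment, and they cannot set these ratios apart from that of Inha. The mean log2 ratio of Inhbb to Inhba was 1.33 in vehicle and 1.52 at 300 mg/kg/d (exact permutation p = 0.464). That of Fst to the sum of the beta subunits was -5.74 in vehicle and -6.04 at 300 mg/kg/d (exact permutation p = 0.286).

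**Figure D4:**
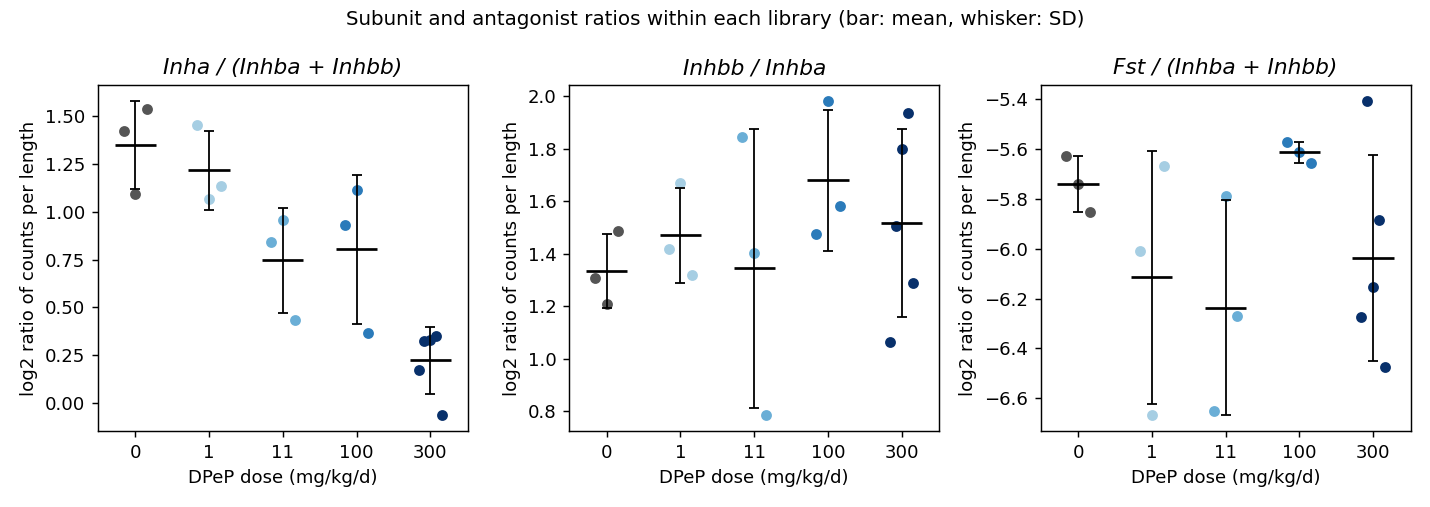
Log2 ratios of transcripts per length (vertical axes) in each of the 17 libraries by DPeP dose (horizontal axes), with points for libraries and bars for group means and SD. The Inha ratio falls from a mean of 1.35 in vehicle to 0.22 at 300 mg/kg/d without overlap, while the ratios of Inhbb to Inhba and of Fst to the beta subunits overlap.

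The top dose and 100 mg/kg/d were also compared with each other, where 0.00555% of all genes (1 gene) were called. No member was called. Log2 fold changes of 300 over 100 mg/kg/d were 0.45 for Amh (adjusted p = 0.151), 0.49 for Amhr2 (0.0986), -0.32 for Inha (0.207), 0.38 for Inhba (0.230), 0.22 for Inhbb (0.231) and -0.12 for Fst (0.782). Amhr2 was the gene whose 2 groups did not overlap, in a comparison where 3.37% of genes were higher with no overlap. With DESeq2 Amhr2 passed the test (log2 fold change 0.50, adjusted p = 0.0357), and without replicate 19 at 100 mg/kg/d Inha passed it (-0.45, adjusted p = 0.0322). Without replicates 05 and 18 instead, the log2 fold change of Inha was -0.0034 (adjusted p = 0.999), so its value in this comparison depended on which library at 100 mg/kg/d was used. The same omission gave 0.18 for Inhba, 0.11 for Inhbb, 0.52 for Amh, 0.57 for Amhr2 and -0.22 for Fst, none of them called.

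Other ligands of the family were mostly not called. Of 15 listed ligands 11 were tested, and at 300 mg/kg/d 1 rose and 1 fell, with a median log2 fold change of 0.28. Lefty2, an inhibitor of Nodal signalling, fell from 4.63 ± 0.413 CPM in vehicle (SD, n = 3) to 0.559 ± 0.204 CPM (SD, n = 5), with the log2 fold change at -3.04 (SE 0.333, adjusted p = 1.11e-05), and was also called at 100 mg/kg/d (-2.31, SE 0.372, adjusted p = 0.00247). Bmp7, a bone morphogenetic protein, rose from 13.0 ± 0.748 to 22.6 ± 4.32 CPM, with the log2 fold change at 0.79 (SE 0.192, adjusted p = 0.0291). The Bmp7 call was lost in 7 of 25 alternatives, including without any 1 of the 3 vehicle libraries (adjusted p = 0.116, 0.115 and 0.0924) and without replicate 13, 14 or 20 at 300 mg/kg/d. Lefty2 was the only listed ligand called at 100 mg/kg/d.

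Apart from Amhr2, no receptor was called at 300 mg/kg/d: none of the 14 other receptors and co-receptors listed passed the test, with a median log2 fold change of 0.04. The activin type II receptor genes Acvr2a and Acvr2b, named for their role, were at -0.01 (SE 0.136, adjusted p = 0.991) and 0.27 (SE 0.165, adjusted p = 0.537). Tgfbr3, which encodes the inhibin co-receptor betaglycan, was at -0.19 (SE 0.177, adjusted p = 0.708). The 2 receptor genes of highest mean CPM, Bmpr1a and Eng, were at 0.03 and 0.01. No receptor, SMAD, antagonist or target gene of the lists was called at 100 mg/kg/d either.

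None of the 8 SMAD genes was called (median 0.04), and Smad4, the SMAD common to all branches, was at 0.04 (SE 0.0845). None of the 10 immediate SMAD target genes was called (median 0.13), with Skil at 0.02 and Smad7, which is both an inhibitor and a target, at 0.21 (SE 0.116, adjusted p = 0.479). Among 13 antagonists and processing enzymes none was called at 300 mg/kg/d (median 0.01). Bambi, a decoy receptor, had a called dose slope (adjusted p = 0.0309) and a fold change of 0.42 (log2) at 300 mg/kg/d (SE 0.153, adjusted p = 0.195). Its slope call was lost without vehicle replicate 01, without replicates 02 or 09 at 1 mg/kg/d, without replicates 07, 13 or 14 at 300 mg/kg/d (adjusted p up to 0.0845) and with the group number as the dose score (0.0573). Transcripts of the signalling machinery give no measure of receptor or SMAD activity, which was not measured here.

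Of 10 genes known to regulate Amh, 1 rose and 1 fell at 300 mg/kg/d, with a median of 0.13. Sox8, a SOX factor of Sertoli cells, rose from 20.9 ± 2.80 to 37.4 ± 3.35 CPM (log2 fold change 0.84, SE 0.150, adjusted p = 0.00265). Nr0b1, the nuclear receptor Dax1 that represses SF-1, fell from 54.7 ± 7.52 to 28.04 ± 2.97 CPM (log2 fold change -0.96, SE 0.128, adjusted p = 0.000118), and was called at 100 mg/kg/d too (-0.66, SE 0.146, adjusted p = 0.0244). Sox9 was at 0.48 (SE 0.181, adjusted p = 0.212), Nr5a1, which encodes SF-1, at -0.23 (SE 0.117, adjusted p = 0.427) and Gata4 at 0.11 (SE 0.132, adjusted p = 0.792).

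Among the 15 Sertoli cell markers tested, 4 rose and none fell at 300 mg/kg/d (median 0.35), namely Sox8, Clu, Fgf9 and Dhh. The dose slope called 7 of them higher. For 1 of these, Shbg, the alternatives were not examined. Among the others, the slope call of Dhh was lost in 7 of 25 alternatives (adjusted p up to 0.0998) and that of Sox8 in 4 of 25 (up to 0.0657). Fgf9, a growth factor that supports Sertoli cell fate, was 0.97 higher on the log2 scale (SE 0.199, adjusted p = 0.00924) and was not called without vehicle replicate 01 (0.0509) or 15 (0.0667). For Dhh, the ligand through which Sertoli cells act on Leydig cells, the log2 fold change was 0.54 (SE 0.128, adjusted p = 0.0243) and was not called without vehicle replicate 01 or 08, without replicate 13 or 14 at 300 mg/kg/d (adjusted p up to 0.165) or with the sample code (0.0787). Of the other cell types at 300 mg/kg/d, 1 of 8 germ cell markers rose (Nanos2, a call lost in 13 of 25 alternatives) and 1 of 5 macrophage markers fell (Tyrobp). At that dose none of 6 endothelial, 5 peritubular myoid, 5 interstitial progenitor, 5 mesonephric and 3 ovarian granulosa cell markers was called, and both adrenal cortex markers that passed the filter, Mrap and Cyp11b1, fell. Granulosa cells are the ovarian cells that express the same hormones, and their 4 markers summed to 28.4 to 41.9 TPM in vehicle and 37.9 to 49.2 TPM at 300 mg/kg/d, with Foxl2 too low to test.

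Other markers were called at 100 mg/kg/d, a dose at which Inha was called too. All 8 germ cell markers had a positive log2 fold change there, with a median of 0.75, and Dazl (0.82, SE 0.161, adjusted p = 0.0109) and Sycp3 (0.82, SE 0.204, adjusted p = 0.0472) were called. Their summed level was 439 to 611 TPM against 344 to 403 TPM in vehicle. The endothelial marker Cdh5 (-0.84, SE 0.185, adjusted p = 0.0238) and the interstitial progenitor marker Dlk1 (-0.61, SE 0.132, adjusted p = 0.0214) were called lower. These calls at 100 mg/kg/d were not examined in the alternatives, including the omission of the replicates with a high mitochondrial share. The same holds for the calls of all other list genes at this dose. Among all genes, the 274 called at this dose became 45 in a fit of the 2 groups alone and 904 with DESeq2. Summed endothelial markers were at 124 to 204 TPM against 218 to 244 TPM in vehicle. The summed SMAD genes, none of them called at this dose, also had a median of 213 TPM against 277 TPM in vehicle. TPM and CPM diverged among these libraries: Amh was at 1811 CPM and 1951 TPM in replicate 05, and at 1774 CPM and 2549 TPM in replicate 19. The part of the TPM scale in these sums was not tested. Slopes over dose were called for Nanos2 and Dazl upward and for Tek, Dlk1 and Tyrobp downward, of which Dazl was lost in 7, Tek in 17 and Dlk1 in 1 of 25 alternatives. The part of these markers in the Inha result was not tested.

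**Figure D5:**
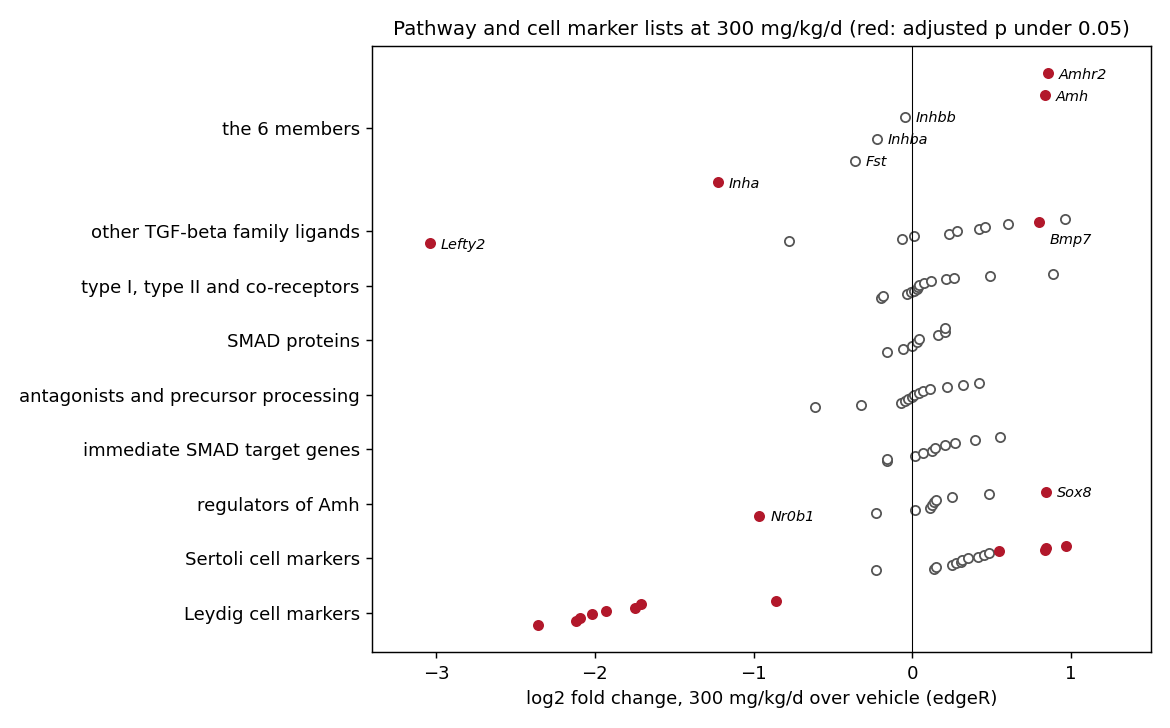
Log2 fold change of 300 mg/kg/d over vehicle (horizontal axis) for the 6 members and for the genes of each pathway or marker list (rows), with filled red points at an adjusted p under 0.05. Among the pathway lists only Lefty2, Bmp7, Sox8 and Nr0b1 are red, while 4 Sertoli cell markers lie to the right and all 8 Leydig cell markers to the left.

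The genes whose pattern over the 17 libraries was most like each member were found by the root mean square (RMS) difference of log2 CPM, each centred on its own mean, among 14476 genes with a symbol and a mean of at least 1 CPM. Nearest to Amh were C1qtnf12 (RMS difference 0.150), Rin2 (0.185) and Emid1 (0.201), where the RMS of Amh about its own mean was 0.418. C1qtnf12 rose in parallel from 13.2 to 23.8 CPM between vehicle and 300 mg/kg/d. Nearest to Amhr2 were Mybphl (0.192), Hap1 (0.216) and Strip2 (0.218), against an RMS of 0.419 for Amhr2 itself. Nearest to Inha were Bhmt (0.187), Creg1 (0.204) and Susd3 (0.215), against 0.528 for Inha, and Bhmt went from 20.3 to 7.11 CPM.

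The 3 members without a called change had less variation to match. For Inhbb, whose own RMS was 0.171, Ltbr, Npepl1 and Thra lay within 0.0724, 0.0770 and 0.0781. For Inhba, with an RMS of 0.338, the nearest were Rasgef1b (0.174), Nrp1 (0.174) and Adamts12 (0.181). The nearest genes to Fst, Tmem167b, Gnpda1 and Ccdc112, were at 0.249 to 0.257 against an own RMS of 0.344. The low counts of Fst, 44 to 118 a library, limit how closely any gene could follow it. All libraries are shared by these genes, including their depth and any effect of library quality, and no test was made of these likenesses.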

How the data were processed

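Gene expression was measured in 17 libraries, prepared with polyA selection and an NEBNext Ultra II RNA kit, per the labels. Trimmomatic 0.36, STAR 2.5.2b, featureCounts of Subread 1.5.2 and the build mRatBN7.2 are named in the submitters' processing notes, together with DESeq2 and limma, with no role given. Neither the annotation release nor whether counting used strand is given in the sources used here. The deposited values are raw read counts per gene with exon lengths, per the file headers. A deposited table of the whole series with 47125 rows for 30652 identifiers held the same counts (0 differed). The authors' deposited TPM and log2 tables were not used here.

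The 92 ERCC spike-in rows were left out, which left 30560 genes. Libraries held 14282274 to 20323488 gene counts. CPM used TMM-scaled library sizes, log2 CPM a prior count of 2, and TPM were computed from counts over exon length. Groups were compared with edgeR 4.0.16 in R 4.3.3 (filterByExpr by group, minimum count 10, quasi-likelihood F test, 1 fit of all groups), with 18005 genes tested. Ratios added 0.5 counts to each gene and were tested with two-sided exact permutation tests in scipy 1.17.1. Alternatives were DESeq2 1.42.0, limma 3.58.1 (voom), size factors and upper quartile scaling, no filter, the sample code as a term, fits of 2 groups alone, another dose score and leaving out libraries. The fitting code was tested on simulated data.

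The members, gene lists and tests were chosen with earlier results of these data known. Named genes are the members, up to 5 called genes of each list at 300 mg/kg/d and in the dose slope (or the 2 most abundant where none was called), 3 genes of like pattern per member, and Star, Cyp17a1 and Insl3. Some genes under this rule are left undescribed. Outside it, Acvr2a, Acvr2b, Tgfbr3, Sox9, Nr5a1, Gata4, Sycp3, Cdh5 and Shbg are named, chosen for their role or their call after their values were seen. The 16 lists hold other ligands, receptors, SMADs, antagonists and processing enzymes, SMAD targets, regulators of Amh, and markers of Sertoli, Leydig, germ, endothelial, macrophage, peritubular myoid, interstitial progenitor, granulosa, adrenal cortex and mesonephric cells.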

Additional observations from a re-analysis of the deposited data

How the results depend on the processing

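The called dose slopes of Amh, Amhr2 and Inha and the calls of Amhr2 and Inha at 300 mg/kg/d kept their direction and their call in all 25 alternatives run, with an adjusted p of at most 0.0470 for Amhr2 and 0.000971 for Inha at 300 mg/kg/d. The Amh call at 300 mg/kg/d held in 21 of 25. Its log2 fold change ranged from 0.63 to 0.95, and adding the code S446, S447 or S448 as a term gave 0.83 (adjusted p = 0.0591). Inhba, Inhbb and Fst were called at 300 mg/kg/d and in the slope in none of the 25.

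The number of genes called moved more than the members did. At 300 mg/kg/d against vehicle 270 genes were called with the sample code as a term, 835 for the 2 groups alone, 746 with DESeq2 and 869 without replicates 05 and 18 at 100 mg/kg/d, against 432. Leaving out 1 library at a time gave 212 to 755, with 256, 264 and 212 without vehicle replicates 01, 08 and 15 and 755 without replicate 19 at 100 mg/kg/d. At 100 mg/kg/d against vehicle, 274 became 45 in a fit of the 2 groups alone, 904 with DESeq2 and 73 without replicates 05 and 18. Leaving out 1 library gave 93 to 4250, with 94 and 99 without vehicle replicates 01 and 15, and 162, 93 and 4250 without replicates 05, 18 and 19 at 100 mg/kg/d. At 11 mg/kg/d, 0 became 19 with no filter, 1 with the sample code, 10 for the 2 groups alone, 2 with limma-voom, 26 with DESeq2 and 19 without replicates 05 and 18. Leaving out 1 library gave 0 to 19 there. At 1 mg/kg/d it became 1 with no filter and 3 for the 2 groups alone, and leaving out 1 library gave 0 to 1. For 300 against 100 mg/kg/d, 1 became 225 with no filter, 1310 with DESeq2 and 0 with the sample code, for the 2 groups alone and without replicates 05 and 18. Leaving out 1 library gave 0 to 5872, the highest without replicate 19 at 100 mg/kg/d. The test of any difference called 581 genes with the sample code and 2843 with DESeq2 against 1109, and 517 to 5913 with 1 library left out, the highest again without replicate 19. It called 657 and 623 without replicates 09 and 10 at 1 mg/kg/d, 517 without replicate 18 at 100 mg/kg/d, and 708, 706 and 700 without replicates 07, 14 and 20 at 300 mg/kg/d. The slope called 586 with the sample code and 1711 without replicates 05 and 18 against 1030. The cause of these changes was not tested.

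With 1 library left out, log2 differences from vehicle that were not called changed sign at the low doses. The ranges were -0.17 to 0.063 for Amh, -0.26 to 0.18 for Amhr2, -0.30 to 0.25 for Inhba and -0.049 to 0.13 for Inhbb at 11 mg/kg/d. At 1 mg/kg/d they were -0.050 to 0.19 for Amh, -0.0062 to 0.35 for Amhr2 and -0.17 to 0.039 for Inhba. Inhbb at 11 mg/kg/d was -0.0082 with the sample code. The log2 ratio of Inhbb to Inhba at 11 mg/kg/d ranged from -0.24 to 0.29, and Amh minus the Sertoli list from -0.0054 to 0.19 at 1 mg/kg/d and from -0.098 to 0.085 at 11 mg/kg/d. With 1 library left out, Amh at 300 mg/kg/d ranged from 0.63 to 0.95. No paired analysis was possible because no replicate number occurs in more than 1 group. With 3 to 5 libraries a group, 3 against 3 cannot pass an exact permutation test, and none of the 16 ratio tests could pass after adjustment. The counts of Fst (44 to 118 a library) limit the precision of its values.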
